A study of Rattus norvegicus with 72 samples.

Results

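The subject is the liver remnant of rats on the carbohydrate diet (CHO) 1 h after partial hepatectomy (PHx), the removal of part of the liver that starts regrowth of what is left. The arrays were chosen by their titles, and they are 8 of the 72 arrays of the study, from 4 of its 36 animals. Every animal gave a remnant array (4 CHO 1 h remnants) and a control array from liver frozen at the operation (4 CHO 1 h controls). Each remnant was set against the liver of the same rat at time 0. The study profiled total RNA on Affymetrix Rat Gene 1.0 ST arrays in rats on chronic ethanol (EtOH), a high fat (HF) or the CHO diet, with remnants 1, 6 or 24 h after PHx. The EtOH and HF remnants at 1 h and their own controls, 4 animals each, are described only where the diets are compared. Animals of all diets and times without an array marked as an outlier also set the spread behind the standard errors and p-values. The CHO animals served as pair-fed controls of the ethanol-fed rats. All groups share the operation, and strain, sex, age, diet composition and the share of liver removed are items that the labels do not state. No sham-operated animals are among the samples analysed here, so PHx, anaesthesia, handling and the passage of 1 h cannot be told apart. The control was tissue taken at the operation and the remnant the tissue left, so the part of the liver sampled may differ as well.

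Values are log2 array signals, where a difference of 1 is a factor of 2, and array medians were 4.59 to 4.72 over the 8 arrays (4.54 to 4.77 over all 72). Changes are remnant minus control, errors after ± are standard errors (SE) of a limma fit (n = 3 animals, or 4 where stated), and p-values are adjusted over all 14506 genes. A gene is said to rise or fall where its adjusted p was under 0.05. Values of a gene are given for replicates 1 to 4 in order. Without detection calls in the files, genes below the array median cannot be placed above background, and the size of their change is uncertain. The submitters marked the remnant array of replicate 3 as an outlier. The main values therefore rest on replicates 1, 2 and 4 (3 animals), and values with all 4 animals are given beside them. Across genes, the differences within that animal had an SD of 0.36, against 0.30 to 0.32 in the other 3 animals. In the deposited table without outliers, the column named as the control of replicate 3 correlated at 0.98 across probe sets with that remnant array and at 0.26 with its own, after each probe set's mean was removed, so that table supplied no value here. The sample titles and diet tags were followed for the diets, although the source names give the HF and CHO names the other way round. Scd, a desaturase that dietary carbohydrate induces, had levels of 9.07 to 10.42 in the CHO controls and 4.39 to 6.29 in the HF controls of the 1 h cohort. Of 3 further genes that carbohydrate induces, Slc2a5 had 6.96 to 8.43 in the CHO controls and 5.82 to 6.95 in the HF controls, and Pklr 9.41 to 10.00 in the CHO controls and 8.49 to 9.27 in the HF controls. The third, Thrsp, overlapped, with 11.13 to 12.14 in the CHO controls and 11.47 to 12.18 in the HF controls. Albumin (Alb), the main product of hepatocytes, read 13.36 to 13.52 in the remnants and 13.40 to 13.55 in the controls.

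In the first hour after PHx the remnant is in what is called the priming phase. Blood flow through the remaining tissue and the supply of insulin, glucagon, catecholamines and cytokines per cell rise at once, and latent kinases and transcription factors switch on immediate early genes without new protein synthesis. These genes encode transcription factors, kinase phosphatases and secreted signals. Their products precede the entry of hepatocytes into the cell cycle, which in rats follows many hours later.

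The genes with the largest rises at 1 h were Nr4a1, an orphan nuclear receptor, Apold1, an immediate early gene of endothelium, Igfbp1, a secreted binding protein for insulin-like growth factors, and the stress factor Atf3. Of 9 AP-1 genes 7 rose, of 13 EGR, KLF and NR4A genes 5 and of 31 other immediate early genes 16. MAP kinase phosphatases and feedback regulators had 6 of 17, p53 targets 5 of 15 and chemokine, cytokine and NF-kB feedback genes 7 of 31. Gluconeogenesis and cAMP target genes had 6 of 26, Nr4a1 being counted there too, while most other lists had few calls. Falls were smaller, and the largest was that of Snai2, a repressor of the Snail family. In limma, 184 of 14506 genes rose (1.27%) and 85 fell (0.586%) over 3 animals, 1.85% of the genes tested in either direction at an adjusted p under 0.05. Of the genes that rose, 152 did so by at least 1.5-fold, 88 by at least 2-fold and 25 by at least 4-fold. Among those that fell, the numbers were 51, 5 and 1. The median log2 change was 0.96 for the genes that rose, -0.63 for those that fell and -0.02 for all genes. Of the 184, 29 had a mean control level under the median of the array medians (4.63), where the size of a rise is least certain. Nr4a1, Apold1, Maff, Dusp8, Fos, Hbegf, Il10, Gdf15 and Thbd, described below, are among them. Of the 85 genes that fell, 6 had a mean control level and 15 a mean remnant level under that median.

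With all 4 animals 322 genes rose (2.22%) and 374 fell (2.58%), 4.8% in all, and at least 2-fold changes numbered 96 and 9. Of the genes called over 3 animals, 178 of 184 rises and 79 of 85 falls were called again. The fourth animal added more falls than rises (295 against 144), and the median of all falls was -0.49 over all 4. Replicate 3 did not enter the 3-animal values. In that animal 178 of the 184 genes that rose were higher in the remnant, with a median of 0.92, where 48.04% of all genes were higher. Of the 85 genes that fell, 79 were lower, with a median of -0.57, where 51.94% of all genes were lower. All 4 remnants lay above all 4 controls for 159 of the 184 genes, against 605 of all genes (4.17%), and below them for 71 of the 85, against 787 (5.43%). The arrays of replicates 1, 2 and 4 had made these calls, so that separation follows in large part from the choice of genes. In the fits that left out a replicate, a change rested on 2 animals, and the counts were 87 to 126 rises and 20 to 31 falls. Where a call is said below to be lost without a replicate, the number in parentheses is the log2 change in that fit.

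**Figure D1:**
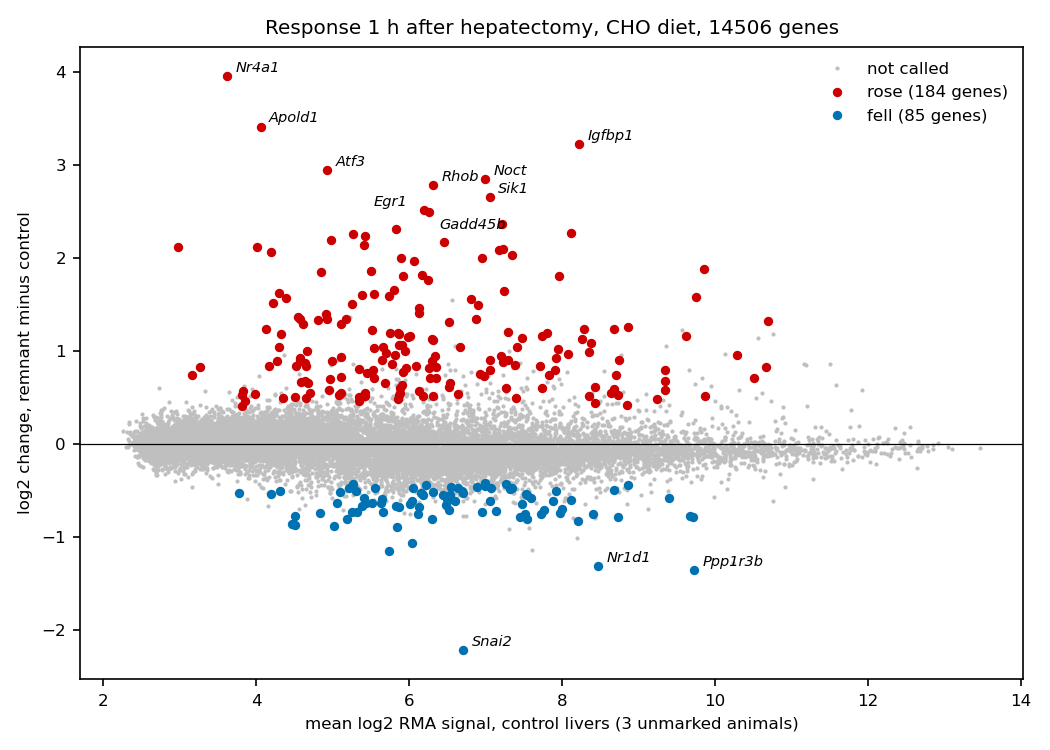
Log2 change, remnant minus control (vertical axis, mean of replicates 1, 2 and 4) against the mean log2 signal of the control livers (horizontal axis), 1 point per gene. The 184 genes that rose (red) spread over low and high levels and reach 3.96, while the falls of the 85 that fell (blue) are smaller, with Snai2 at -2.21.

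AP-1 is the family of dimers of Jun, Fos, ATF and Maf-related proteins that bind the promoters of early growth and stress genes. Of its 9 measured members 7 rose and 0 fell, with a list median of 1.47. Atf3 (probe set 10770710), an ATF member that cell stress induces, stood at 8.26, 7.68, 7.05 and 7.68 in the remnants, against 4.81, 4.95, 4.91 and 5.02 in the control livers, and its log2 change was 2.95 ± 0.28 (adjusted p = 1.43e-07) over 3 animals and 2.74 ± 0.25 (adjusted p = 2.51e-08) over all 4. The control values lay close together, and the remnants varied more. Jun, the main partner of Fos, had 9.69, 8.87, 8.47 and 9.24 in the remnants, against 7.39, 6.79, 7.16 and 7.35 in the control livers, a change of 2.09 ± 0.22 (adjusted p = 6.97e-07) over 3 animals and 1.89 ± 0.20 (adjusted p = 2.69e-07) over all 4. Its relatives Junb and Jund rose by 1.81 and 1.31, and the small Maf protein Maff by 2.06.

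Fos itself rose less, by 1.04 ± 0.17 (adjusted p = 0.000337) over 3 animals and 0.84 ± 0.16 (adjusted p = 0.00143) over all 4, with signals of 5.71, 5.07, 4.76 and 5.26 in the remnants, against 4.31, 4.39, 4.54 and 4.21 in the control livers. Replicate 1 was highest among its remnants and the marked replicate 3 lowest. Fosl2, a Fos relative, rose by 1.47 ± 0.11 with close values in all animals (1.69, 1.30, 1.34 and 1.41). Fosl1 and Batf, the other members measured, had changes of 0.11 (adjusted p = 0.733) and 0.08 (adjusted p = 0.9).

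Zinc finger and nuclear receptor factors that are induced as early as AP-1 followed the same pattern in part. Of 13 EGR, KLF and NR4A genes 5 rose and 0 fell (8 and 0 with all 4 animals; median 0.63). Nr4a1 (probe set 10899387) showed the largest change of all 14506 genes, with 7.71, 6.93, 6.84 and 8.10 in the remnants, against 3.60, 4.20, 3.40 and 3.06 in the control livers. Its change was 3.96 ± 0.34 (adjusted p = 2.46e-08) over 3 animals and 3.83 ± 0.29 (adjusted p = 1.34e-09) over all 4, a fold of 15.5. Its controls were under the array medians, so that fold is uncertain in size. Egr1 (probe set 10800919), which serum and growth factors induce, stood at 8.73, 8.45, 7.94 and 8.93 in the remnants, against 6.11, 5.49, 6.38 and 6.97 in the control livers and changed by 2.51 ± 0.41 (adjusted p = 0.000451) over 3 animals and 2.27 ± 0.36 (adjusted p = 0.00016) over all 4.

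Klf6, a Krüppel-like factor, changed by a similar amount in every animal, with differences of 1.61, 2.10, 1.83 and 1.87 and a mean of 1.86 ± 0.20. Klf2, which responds to shear flow in endothelium, rose by 1.50 ± 0.18 and Klf4 by 0.59 ± 0.15. The other NR4A genes, Nr4a2 (0.75, adjusted p = 0.0905) and Nr4a3 (0.63, adjusted p = 0.103), missed the threshold over 3 animals, and Nr4a3 rose over all 4 (0.67, adjusted p = 0.0155). The call of Klf4 was lost without replicate 1 (0.59), without replicate 2 (0.67) and without replicate 4 (0.50).

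Of 31 other immediate early genes 16 rose and 0 fell (19 and 0 with all 4 animals), with a median of 0.94. Apold1 (probe set 10859262) stood at 7.90, 7.16, 5.97 and 7.37 in the remnants, against 4.56, 4.19, 4.64 and 3.45 in the control livers, and its change was 3.41 ± 0.19 (adjusted p = 1.26e-11) over 3 animals and 2.89 ± 0.24 (adjusted p = 5.46e-09) over all 4. Replicate 3 had the lowest remnant and the highest control value of this gene, so its difference was 1.33, against 2.97 to 3.92 in the others. Rhob (probe set 10889177), a small GTPase, had 9.38, 8.78, 8.78 and 9.15 in the remnants, against 6.96, 5.87, 5.87 and 6.12 in the control livers, and rose by 2.79 ± 0.31 (adjusted p = 1.74e-06) over 3 animals and 2.82 ± 0.26 (adjusted p = 4.88e-08) over all 4. Gadd45b (probe set 10900358), a stress sensor that limits JNK signalling and is induced in regenerating liver, had 9.30, 9.32, 9.02 and 7.65 in the remnants, against 7.13, 6.30, 5.54 and 5.36 in the control livers. Its remnant value was lowest in replicate 4, whose control was lowest too, and the change was 2.49 ± 0.21 (adjusted p = 2.25e-08) over 3 animals and 2.74 ± 0.19 (adjusted p = 5.92e-10) over all 4.

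Myc, the growth-promoting transcription factor, stood at 8.43, 7.53, 7.61 and 8.46 in the remnants, against 6.59, 5.81, 6.87 and 5.09 in the control livers. All remnants lay above all controls, yet the differences ran between 0.74 in replicate 3 and 3.37 in replicate 4, with a change of 2.31 ± 0.37 (adjusted p = 0.000333) over 3 animals and 1.92 ± 0.34 (adjusted p = 0.000649) over all 4. Noct, a rhythmic gene also induced by fasting and stress, had 10.19, 9.72, 10.06 and 9.61 in the remnants, against 7.40, 6.17, 5.65 and 7.40 in the control livers, and rose by 2.85 ± 0.61 (adjusted p = 0.00853) over 3 animals and 3.24 ± 0.53 (adjusted p = 0.000279) over all 4. Its remnants were alike and its controls differed, those of replicates 1 and 4 being the higher. The call of Noct was lost without replicate 1 (2.88) and without replicate 2 (2.50).

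Ccn1 and Ccn2, secreted proteins that YAP and serum response factor activate, rose by 2.17 ± 0.28 and 1.60 ± 0.19. Thbs1, which lies outside the lists and encodes the thrombospondin that can activate latent TGF-beta, had 7.69, 8.05, 8.41 and 6.85 in the remnants, against 5.78, 5.34, 5.11 and 4.69 in the control livers, a change of 2.26 ± 0.37 (adjusted p = 0.000528) over 3 animals and 2.52 ± 0.33 (adjusted p = 1.25e-05) over all 4. Srf, the serum response factor itself, rose by 0.94 ± 0.19. Ier2 rose by 0.87 ± 0.18 over 3 animals, but in replicate 3 it was -0.15. Ier3, a further early gene, gave 0.93, 0.25, -0.01 and 0.01 in the 4 animals and was not called (adjusted p = 0.371). Of these calls, some were lost, namely without replicate 1 for Ier2 (0.84), without replicate 2 for Srf (0.95) and Ier2 (0.88), and without replicate 4 for Ier2 (0.88) and Srf (0.86).

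**Figure D2:**
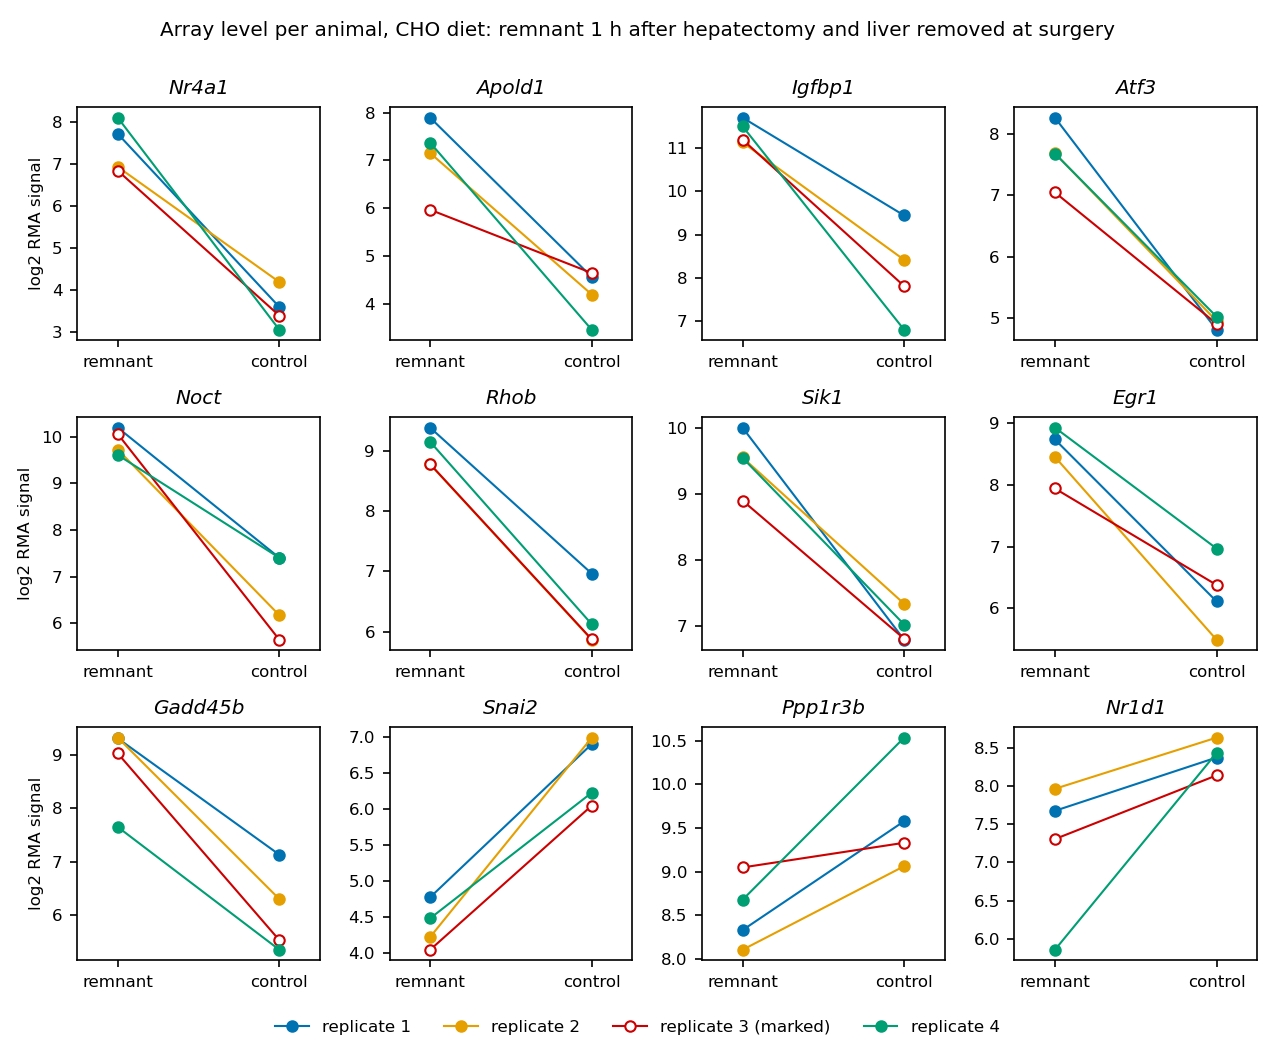
Log2 array signal (vertical axis) of the 9 genes with the largest rises and the 3 with the largest falls, remnant on the left and control liver on the right in each panel. A line joins the arrays of an animal, and open red circles mark replicate 3, whose remnant array the submitters marked. The genes were chosen among those with the same sign in all 4 animals, so the lines of a panel run the same way by choice, and the starting level in the control differs most for Igfbp1, at 6.81 to 9.44.

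Phosphatases that switch off MAP kinases, and other feedback regulators of growth factor signalling, made up a list of 17 genes of which 6 rose and 0 fell (6 and 1 with all 4 animals; median 0.17). The largest rise was that of Dusp8, which acts on JNK and p38, with 6.07, 5.80, 6.22 and 6.52 in the remnants, against 4.05, 4.12, 4.24 and 3.88 in the control livers. These controls were under the array medians, so the rise of Dusp8 is uncertain in size. Its change was 2.12 ± 0.20 (adjusted p = 1.46e-07) over 3 animals and 2.08 ± 0.17 (adjusted p = 4.51e-09) over all 4. Dusp1 (probe set 10732652), a nuclear phosphatase for all MAP kinase classes, stood at 11.36, 11.23, 10.95 and 11.40 in the remnants, against 9.93, 9.42, 10.71 and 9.90 in the control livers. The remnants were alike, but the control of replicate 3 was already at 10.71, above the other controls, and the change was 1.58 ± 0.31 (adjusted p = 0.00418) over 3 animals and 1.24 ± 0.29 (adjusted p = 0.0098) over all 4. Dusp16, Dusp10, Dusp5 and Spry4 rose by 1.21, 0.84, 0.78 and 0.80. Dusp6, the ERK phosphatase that ERK itself induces, gave 0.61, 0.02, -0.82 and -1.12 and was not called (adjusted p = 0.876). A call was lost without replicate 1 for Dusp10 (0.78), Dusp5 (0.74) and Spry4 (0.55), without replicate 2 for Dusp1 (1.46), Dusp16 (0.95), Dusp10 (0.88) and Dusp5 (0.82), and without replicate 4 for Dusp10 (0.86) and Dusp5 (0.78).

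Cytokines from resident macrophages activate NF-kB and then STAT3 in hepatocytes early after PHx. Of 31 chemokine, cytokine and NF-kB feedback genes 7 rose and 0 fell (10 and 0 with all 4 animals), and the list median was 0.34. Cxcl1 (probe set 10775900), a neutrophil chemokine, had 7.30, 8.0, 7.86 and 8.38 in the remnants, against 5.84, 5.84, 6.06 and 5.99 in the control livers, and rose by 2.00 ± 0.29 (adjusted p = 0.000131) over 3 animals and 1.95 ± 0.25 (adjusted p = 1.05e-05) over all 4. Among the interleukin 1 genes, the receptor antagonist Il1rn rose by 1.96 ± 0.25 and Il1a by 1.81 ± 0.19, while Il1b changed by 0.48 ± 0.16 (adjusted p = 0.126). The Il1a difference was 0.27 in replicate 3 and 1.43 to 2.38 in the others.

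Among the feedback genes that NF-kB induces, Nfkbia and Nfkbiz rose. Nfkbib, Bcl3 and Irak3, other IkB proteins or inhibitors of the pathway in that list, were not called over 3 animals (0.34, 0.36 and 0.37, adjusted p = 0.419, 0.122 and 0.5), and Bcl3 rose over all 4 (0.46, adjusted p = 0.00767). Nfkbia, which encodes IkB-alpha, had 9.47, 9.12, 9.04 and 9.58 in the remnants, against 8.77, 8.55, 8.53 and 7.47 in the control livers, and rose by 1.13 ± 0.25 (adjusted p = 0.0113) over 3 animals and 0.97 ± 0.22 (adjusted p = 0.00714) over all 4. Replicate 4 had the lowest control and the highest remnant. Without that animal the change of Nfkbia was 0.64 and was not called. Nfkbiz, a nuclear IkB protein, rose by 1.34 ± 0.28, Nfkb2, a subunit precursor, by 1.05 ± 0.23, and Il10, an anti-inflammatory cytokine with remnant signals under the array median, by 0.83 ± 0.14. Tnf and Il6, the cytokines usually named as triggers, had changes of -0.02 (adjusted p = 0.982) and 0.00 (adjusted p = 0.996). Signals were 2.74 to 3.15 in the remnants and 2.78 to 2.98 in the controls for Il6, under the array medians, so a change there may not be measurable. Other calls were lost without replicate 2 for Nfkbiz (1.42) and Nfkb2 (0.78), and without replicate 4 for Nfkbiz (1.03), Nfkb2 (0.97) and Il10 (0.60).

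Of 20 IL-6 family receptor and STAT3 target genes, 2 rose and 0 fell (4 and 0 with all 4 animals, median 0.27). They were the transcription factors Cebpb, which has roles in liver growth, at 0.92 ± 0.18, and Cebpd, at 0.49 ± 0.12. Socs3, the feedback inhibitor that STAT3 induces, gave 0.78, 0.43, 0.34 and -0.30 in the 4 animals and was not called (0.30 ± 0.20, adjusted p = 0.61). Stat3 changed by 0.44 ± 0.21 (adjusted p = 0.396) and Il6r, the IL-6 receptor, by 0.27 ± 0.23 (adjusted p = 0.709). Of the IL-6 family receptors, Osmr (0.51, adjusted p = 0.0242) and Il6st, which encodes the shared subunit gp130 (0.45, adjusted p = 0.0448), rose over all 4 animals only. Cish, a target of STAT5, had differences of 0.64, 1.40, -0.31 and 2.62, a wide spread without a call. Of the 19 secreted acute phase proteins, 0 were called in limma with 3 or 4 animals, and 1 was higher at an unadjusted p under 0.05. At that p 5.51% of all genes were higher and 6.98% lower. The call was lost without replicate 1 for Cebpd (0.52), without replicate 2 for Cebpd (0.53), and without replicate 4 for Cebpb (0.83) and Cebpd (0.41).

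Loss of liver mass lowers blood glucose and raises glucagon, catecholamines and corticosteroids, and genes that answer these hormones make up the next lists. Of 26 gluconeogenesis and cAMP target genes 6 rose and 0 fell (7 and 1 with all 4 animals), with a median of 0.31. Ppargc1a (probe set 10772986), the coactivator that glucagon induces through CREB, had 7.96, 7.88, 6.85 and 7.13 in the remnants, against 5.89, 5.42, 4.77 and 4.96 in the control livers. All 4 animals gave differences of 2.07 to 2.47, and the change was 2.24 ± 0.20 (adjusted p = 4.43e-08) over 3 animals and 2.20 ± 0.17 (adjusted p = 1.64e-09) over all 4. Sik1 (probe set 10832197), a kinase that CREB induces and that then restrains it, had 10.01, 9.56, 8.90 and 9.55 in the remnants, against 6.80, 7.34, 6.81 and 7.03 in the control livers, and rose by 2.65 ± 0.22 (adjusted p = 2.37e-08) over 3 animals and 2.51 ± 0.19 (adjusted p = 1.65e-09) over all 4.

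The list also holds Nr4a1, Pfkfb3, an enzyme that makes the glycolytic activator fructose 2,6-bisphosphate (1.33 ± 0.16), Got1, an aminotransferase (1.17 ± 0.25), and Irs1, an insulin receptor substrate (0.50 ± 0.13). The gluconeogenic enzymes themselves were not called. Pck1 stood at 12.54, 12.49, 12.44 and 12.50 in the remnants, against 12.14, 11.92, 12.20 and 11.72 in the control livers and changed by 0.58 ± 0.18 (adjusted p = 0.111). G6pc1, the glucose 6-phosphatase, differed by 0.94, -0.03, 0.49 and 2.63, so replicate 4 had by far the largest difference and replicate 2 a value near 0, with an adjusted p of 0.0833. Without replicate 2 it was called at 1.78. Calls in this group were lost without replicate 1 for Got1 (0.92) and Irs1 (0.41), without replicate 2 for Got1 (1.16) and Irs1 (0.52), and without replicate 4 for Irs1 (0.56).

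Igfbp1 (probe set 10774141), which glucagon and corticosteroids raise and insulin lowers, was the third largest rise, with 11.70, 11.13, 11.19 and 11.50 in the remnants, against 9.44, 8.42, 7.81 and 6.81 in the control livers. The remnants lay within a narrow range and the controls did not, so the differences followed the control level, at 2.26, 2.71, 3.38 and 4.69. The change was 3.22 ± 0.58 (adjusted p = 0.00151) over 3 animals and 3.26 ± 0.49 (adjusted p = 9.79e-05) over all 4, a fold of 9.32 over 3 animals. Of the 15 genes of the IGF and growth hormone axis it was the only one called, and Igf1 changed by -0.10. Without replicate 4 the change of Igfbp1 was 2.48 and was not called.

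Of 18 genes that handle or answer glucocorticoids, 2 rose and 0 fell (5 and 0 with all 4 animals; median 0.49). They were Dusp1 and Sgk1, a kinase that glucocorticoids induce, which had 10.45, 9.19, 10.04 and 9.65 in the remnants, against 7.83, 7.75, 8.23 and 8.30 in the control livers, a change of 1.81 ± 0.35 (adjusted p = 0.00377) over 3 animals and 1.81 ± 0.30 (adjusted p = 0.000334) over all 4. Per1 rose over all 4 animals (1.09, adjusted p = 0.00286), while over 3 it was 0.86 (adjusted p = 0.0635). Tat, tyrosine aminotransferase, gave 0.86, 1.05, 0.99 and 0.68, Fkbp5 0.96, 1.94, 1.38 and -0.54 and Tsc22d3 -0.38, 0.63, 1.27 and 0.73, and these 3 genes were not called with 3 or 4 animals. The call of Sgk1 was lost without replicate 1 (1.40).

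The promoters of 5 of these genes are shown because each holds the site of a pathway whose genes are described above. They run 5′ to 3′ on the strand of the gene, over 250 bases before and 50 after its annotated start, from RefSeq on build GRCr8. Capitals mark the matches. Ppargc1a, at chr14:63634058-63634357 (plus strand), holds the full cAMP response element TGACGTCA at position -181 from its start. Dusp1, at chr10:17184603-17184902 (plus strand), holds the full element at -124 and the shorter site TGACGT at -172. Klf6, at chr17:69458429-69458728 (minus strand), holds a CArG box, the site of serum response factor, at -201. Cxcl1, at chr14:17479272-17479571 (minus strand), holds overlapping kappaB sites at -84 and -83, and Nfkbia, at chr6:78597023-78597322 (minus strand), holds 1 at -31.
Ppargc1a: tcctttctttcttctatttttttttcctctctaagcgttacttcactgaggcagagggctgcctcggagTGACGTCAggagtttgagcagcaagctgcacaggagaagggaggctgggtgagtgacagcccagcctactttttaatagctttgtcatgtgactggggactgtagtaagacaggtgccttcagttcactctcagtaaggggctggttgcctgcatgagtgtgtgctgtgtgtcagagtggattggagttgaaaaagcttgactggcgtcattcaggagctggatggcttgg
Dusp1: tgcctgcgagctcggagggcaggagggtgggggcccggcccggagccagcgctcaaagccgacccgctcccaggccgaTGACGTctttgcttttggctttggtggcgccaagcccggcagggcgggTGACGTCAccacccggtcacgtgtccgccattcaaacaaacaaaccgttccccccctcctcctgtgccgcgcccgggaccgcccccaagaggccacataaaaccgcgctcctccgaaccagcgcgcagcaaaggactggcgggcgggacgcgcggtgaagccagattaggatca
Klf6: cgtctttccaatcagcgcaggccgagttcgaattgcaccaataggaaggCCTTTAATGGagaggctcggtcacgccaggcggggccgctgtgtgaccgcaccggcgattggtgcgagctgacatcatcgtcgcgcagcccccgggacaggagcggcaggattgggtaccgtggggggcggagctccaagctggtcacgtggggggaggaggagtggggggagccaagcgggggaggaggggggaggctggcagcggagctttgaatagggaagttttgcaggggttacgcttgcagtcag
Cxcl1: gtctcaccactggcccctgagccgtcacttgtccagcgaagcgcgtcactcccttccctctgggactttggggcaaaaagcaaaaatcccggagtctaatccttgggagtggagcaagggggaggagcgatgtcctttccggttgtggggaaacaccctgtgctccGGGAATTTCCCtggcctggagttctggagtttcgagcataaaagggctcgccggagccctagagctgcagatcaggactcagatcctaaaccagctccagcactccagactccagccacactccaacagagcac
Nfkbia: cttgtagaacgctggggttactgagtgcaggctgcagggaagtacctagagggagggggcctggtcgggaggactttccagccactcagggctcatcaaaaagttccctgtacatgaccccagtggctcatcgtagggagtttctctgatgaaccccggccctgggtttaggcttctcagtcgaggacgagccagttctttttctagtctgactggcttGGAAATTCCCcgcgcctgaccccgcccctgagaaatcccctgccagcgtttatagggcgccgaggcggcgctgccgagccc

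The same letters were searched for on both strands of all promoters of this table. Promoters were found for 151 of the 184 genes that rose and 73 of the 85 that fell. The full TGACGTCA element stood in 10 of the 151 (6.62%) and 5 of the 73 (6.85%), in 2.46% of 11968 promoters of measured genes and in 1.91% of all 27457. The shorter site TGACGT, which lies within the full element, stood in 16.6% of the genes that rose and 16.4% of those that fell, against 9.49% of measured genes (8.22% of all promoters). A CArG box was found in 7 promoters of genes that rose (4.64%), 0 of those that fell and 1.28% of measured genes (1.64% of all). A kappaB site was found in 14 promoters of genes that rose (9.27%), 4 of those that fell (5.48%) and 4.66% of measured genes (4.16% of all). The AP-1 site TGACTCA stood in 7 (4.64%), 1 (1.37%) and 3.83% (4.53% of all). These are counts of letters, not of bound sites, and were given no test.

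Hepatocyte mitogens, their receptors and the urokinase system, which frees hepatocyte growth factor from the matrix, had 2 of 22 members that rose and 0 that fell (3 and 0 with all 4 animals; median 0.06). Hbegf, a ligand of the EGF receptor, had 6.12, 5.07, 5.16 and 5.33 in the remnants, against 4.44, 4.30, 4.25 and 4.23 in the control livers, and rose by 1.18 ± 0.21 (adjusted p = 0.00105) over 3 animals and 1.12 ± 0.18 (adjusted p = 0.000181) over all 4. Plaur, the urokinase receptor, rose by 0.70 ± 0.12, with differences of 0.73, 0.66, 0.56 and 0.72. Hgf changed by 0.39 ± 0.20 (adjusted p = 0.432), its receptor Met by 0.11 ± 0.14 (adjusted p = 0.819) and Egfr by 0.06 ± 0.19 (adjusted p = 0.939). The call of Hbegf was lost without replicate 1 (0.94).

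In the TGF-beta, BMP and activin system, 1 of 22 genes rose and 1 fell, with a median of 0.05. The ligand Tgfb3 had 6.25, 7.14, 6.65 and 6.70 in the remnants, against 4.68, 4.79, 4.63 and 5.07 in the control livers, and rose by 1.85 ± 0.27 (adjusted p = 9.81e-05) over 3 animals and 1.90 ± 0.23 (adjusted p = 3.77e-06) over all 4. Smad7, the inhibitor that TGF-beta normally induces, had 5.89, 5.60, 5.04 and 5.01 in the remnants, against 6.57, 6.17, 5.98 and 6.17 in the control livers, and fell, with a change of -0.80 ± 0.16 (adjusted p = 0.00569) over 3 animals and -0.84 ± 0.14 (adjusted p = 0.000347) over all 4. The call of Smad7 was lost without replicate 4 (-0.62).

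Among 17 G1 cyclins and CDK inhibitors, 2 rose and 0 fell, and both are inhibitors. Cdkn1a, which encodes p21, had 7.03, 6.72, 7.01 and 7.05 in the remnants, against 6.12, 5.68, 5.30 and 5.45 in the control livers, and rose by 1.19 ± 0.31 (adjusted p = 0.0401) over 3 animals and 1.32 ± 0.26 (adjusted p = 0.00286) over all 4. Cdkn2b rose by 0.52 ± 0.11. Ccnd1, the cyclin whose rise marks later commitment to the cycle, gave -0.20, 0.22, -0.41 and -0.29 and was not called (adjusted p = 0.93). DNA replication (22 genes), mitosis (28), ribosome biogenesis (31) and cytosolic ribosomal proteins (26) had 0 calls in limma with 3 or 4 animals, and their medians were -0.11, -0.10, 0.04 and -0.07. At an unadjusted p under 0.05, 2 mitosis genes were lower and 0 genes of the other 3 lists differed. p53 targets had 5 of 15 members that rose and 0 that fell (median 0.22), namely Cdkn1a, Gadd45a (1.24), Plk3 (1.60), Gdf15 (1.29) and Tp53inp1 (1.24). With an animal left out, calls ended without replicate 1 for Cdkn1a (1.33) and Cdkn2b (0.51), without replicate 2 for Cdkn1a (1.26), Tp53inp1 (1.22), Plk3 (1.15) and Cdkn2b (0.54), and without replicate 4 for Tp53inp1 (1.09), Gadd45a (1.05), Cdkn1a (0.98) and Cdkn2b (0.51).

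Of 26 genes of the unfolded protein and integrated stress responses 3 rose and 0 fell (3 and 1 with all 4 animals; median -0.06). Ppp1r15a (probe set 10721865), the subunit that directs a phosphatase to eIF2-alpha and so restores translation, had 7.57, 7.42, 7.49 and 7.63 in the remnants, against 5.89, 5.25, 5.42 and 5.08 in the control livers, and rose by 2.14 ± 0.19 (adjusted p = 3.76e-08) over 3 animals and 2.12 ± 0.16 (adjusted p = 1.34e-09) over all 4. Trib3 and Chac1, which ATF4 and CHOP induce, rose by 1.00 ± 0.27 and 0.88 ± 0.19. Hspa5, the chaperone that marks the unfolded protein response proper, gave 0.03, 0.02, 0.27 and -0.14 (adjusted p = 0.962). The heat shock list (13 genes) and the oxidative stress and metallothionein list (19) had 0 genes called over 3 animals and 1 fall each over 4, and in each list 2 were higher and 1 lower at an unadjusted p under 0.05 in limma over 3. Calls ended without replicate 1 for Trib3 (1.16) and Chac1 (0.69), without replicate 2 for Trib3 (0.97), and without replicate 4 for Chac1 (0.88) and Trib3 (0.88).

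Few genes of lipid metabolism were called, and those that rose belong to sterol regulation, triglyceride synthesis and fasting. Of 20 cholesterol synthesis genes and regulators 3 rose and 0 fell, with a median of 0.05. Insig1, which holds the SREBP complex in the endoplasmic reticulum, had 11.99, 11.98, 12.09 and 12.06 in the remnants, against 10.77, 10.83, 9.77 and 10.47 in the control livers, and rose by 1.32 ± 0.27 (adjusted p = 0.00559) over 3 animals and 1.57 ± 0.24 (adjusted p = 0.000132) over all 4. Sqle, the squalene epoxidase, and Stard4, a sterol carrier, rose by 0.96 ± 0.25 and 0.90 ± 0.16. In fatty acid synthesis 1 of 21 rose and 0 fell (2 and 2 with all 4 animals; median -0.08). Lpin2, a phosphatidate phosphatase, rose by 1.20 ± 0.22, and its relative Lpin1 rose over all 4 animals (1.55, adjusted p = 0.0264). The falls over all 4 were those of Mid1ip1, an activator of acetyl-CoA carboxylase (-1.09, adjusted p = 0.00481; -0.90 over 3, adjusted p = 0.0785), and Gpam, which starts triglyceride synthesis (-0.68, adjusted p = 0.0473; -0.61 over 3, adjusted p = 0.238). Scd changed by -0.08 ± 0.44 (adjusted p = 0.965).

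Of 20 PPAR alpha and fatty acid oxidation genes 1 rose and 0 fell (median 0.07). It was Pdk4, the kinase that shuts pyruvate dehydrogenase in fasting, with 8.54, 9.75, 8.66 and 9.66 in the remnants, against 6.93, 6.90, 7.40 and 7.85 in the control livers and a change of 2.09 ± 0.32 (adjusted p = 0.000177) over 3 animals and 1.89 ± 0.28 (adjusted p = 6.63e-05) over all 4. Of 16 bile acid genes 0 were called in limma with 3 or 4 animals (1 was higher at an unadjusted p under 0.05), and Cyp7a1, which catalyses the first step of the classical bile acid pathway, gave 0.46, 0.83, 1.10 and 0.38 (adjusted p = 0.733). In the lipid lists calls were lost without replicate 1 for Sqle (1.04), without replicate 2 for Lpin2 (1.09) and Sqle (0.96), and without replicate 4 for Insig1 (1.19), Sqle (0.90) and Stard4 (0.71).

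Circadian clock genes and their outputs had 1 rise and 1 fall among 17 (2 and 1 with all 4 animals; median 0.14). Nfil3, a repressor of D-box genes, had 8.47, 7.69, 7.85 and 7.89 in the remnants, against 6.50, 6.46, 6.39 and 5.79 in the control livers, and rose by 1.77 ± 0.20 (adjusted p = 2.37e-06) over 3 animals and 1.69 ± 0.17 (adjusted p = 2.15e-07) over all 4. Nr1d1 (probe set 10746955), which encodes the repressor REV-ERB alpha, had 7.67, 7.96, 7.30 and 5.86 in the remnants, against 8.37, 8.63, 8.14 and 8.43 in the control livers. Its difference was -2.57 in replicate 4 against -0.67 to -0.83 in the others, and the change was -1.31 ± 0.31 (adjusted p = 0.0222) over 3 animals and -1.19 ± 0.27 (adjusted p = 0.0077) over all 4. Without replicate 4 its change was -0.68 and was not called. Dbp, an output of the clock, gave -0.42, -0.02, -0.14 and -0.50 (adjusted p = 0.754).

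Transcription factors that define hepatocytes had 1 of 20 that rose, Cebpb, and 0 that fell over 3 animals, with a median of -0.17. Over all 4 animals 3 fell, namely Foxa2 (-1.01, adjusted p = 0.00372), Tbx3 (-0.67, adjusted p = 0.0389) and Gata4 (-0.55, adjusted p = 0.0302). Foxa2, a pioneer factor of liver, had 4.86, 5.33, 4.88 and 5.39 in the remnants, against 5.43, 5.91, 6.71 and 6.45 in the control livers. Replicate 3 had the highest control value and its difference was -1.83, against -0.57 to -1.06 in the others. For Tbx3 and Gata4 the replicate 3 difference was -1.31 and -1.31, and over 3 animals none of the 3 genes was called (adjusted p = 0.0887, 0.362 and 0.406). Hnf4a and Cebpa changed by -0.22 (adjusted p = 0.62) and -0.24 (adjusted p = 0.693).

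In amino acid handling, the transporter Slc38a2, Got1, Slc25a15 and Asl rose and the urea cycle regulator Nags fell, while most members of both lists were not called. Of 21 solute transporters 3 rose and 0 fell (4 and 1 with all 4 animals; median 0.17). Slc38a2, the amino acid transporter SNAT2, had 11.84, 11.61, 11.68 and 11.77 in the remnants, against 10.25, 9.32, 9.47 and 10.00 in the control livers, and rose by 1.88 ± 0.24 (adjusted p = 1.37e-05) over 3 animals and 1.96 ± 0.20 (adjusted p = 2.69e-07) over all 4. Slc25a25, a mitochondrial ATP-Mg and phosphate carrier, rose by 2.26 ± 0.36, with differences of 2.61, 1.88, 1.36 and 2.31, and Slc20a1, a phosphate transporter, by 0.74 ± 0.18. Of 19 urea cycle and amino acid catabolism genes 3 rose and 1 fell (5 and 1 with all 4 animals; median 0.07). Got1 (1.17), the mitochondrial ornithine carrier Slc25a15 (0.96) and argininosuccinate lyase Asl (0.52) rose. Nags, which makes the activator of the first urea cycle step, fell, with 7.45, 7.81, 7.72 and 7.70 in the remnants, against 8.05, 8.32, 8.44 and 8.84 in the control livers and a change of -0.75 ± 0.18 (adjusted p = 0.0237) over 3 animals and -0.74 ± 0.15 (adjusted p = 0.00358) over all 4. Of 14 polyamine genes 1 rose, the antizyme inhibitor Azin1 (0.59 ± 0.14), and Odc1 changed by 0.44 ± 0.20 (adjusted p = 0.378). Calls in these lists were lost without replicate 1 for Got1 (0.92), Slc20a1 (0.69), Azin1 (0.49), Asl (0.37) and Nags (-0.83), without replicate 2 for Got1 (1.16), Slc25a15 (0.82), Slc20a1 (0.79), Asl (0.58), Azin1 (0.53) and Nags (-0.87), and without replicate 4 for Slc20a1 (0.75), Asl (0.61) and Nags (-0.56).

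Other large rises lay outside the lists. Coq10b, which binds coenzyme Q in mitochondria, had 9.63, 9.37, 9.39 and 9.74 in the remnants, against 7.11, 6.85, 6.29 and 7.70 in the control livers, and rose by 2.36 ± 0.34 (adjusted p = 0.000112) over 3 animals and 2.54 ± 0.30 (adjusted p = 2.57e-06) over all 4. Pvr, the adhesion receptor of the nectin family also known as CD155, rose by 2.19 ± 0.27 with differences of 2.32, 2.52, 2.30 and 1.74. The 33 programme lists together hold 630 measured genes, of which 71 rose and 3 fell, so 113 of the genes that rose and 82 of those that fell lie outside them.

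**Figure D3:**
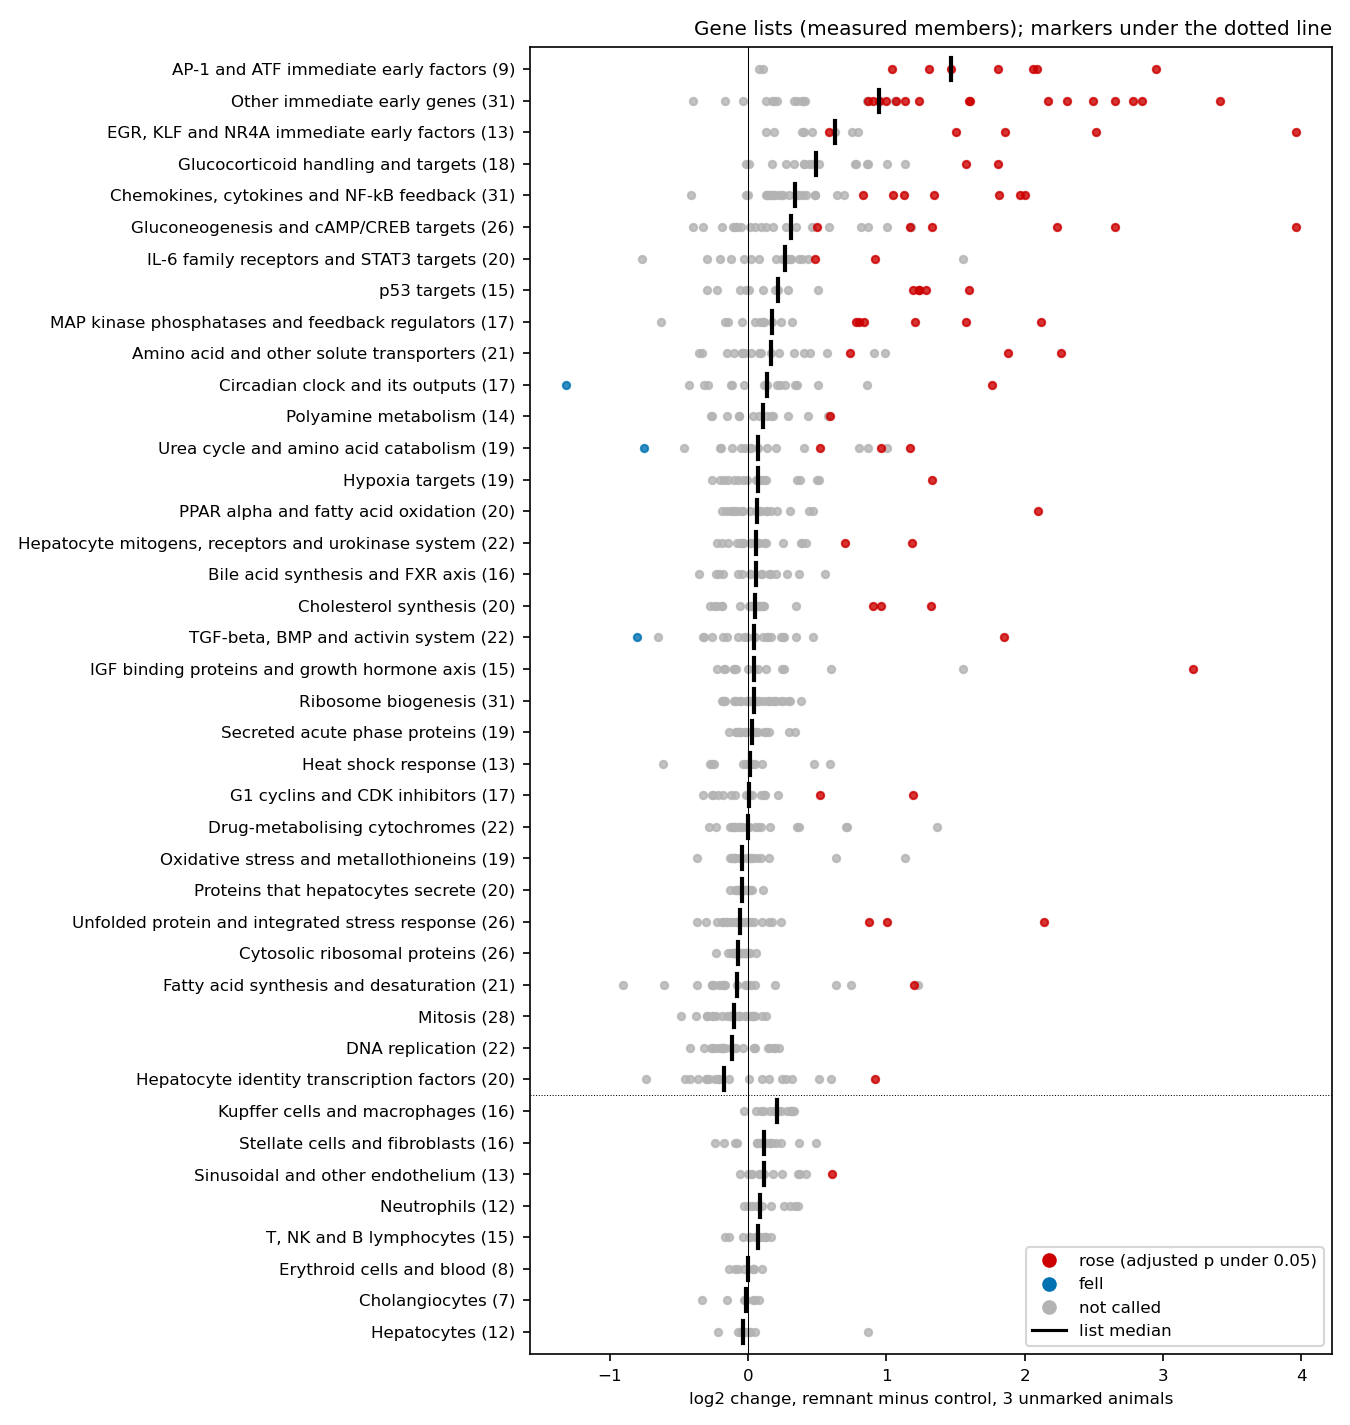
Log2 change over replicates 1, 2 and 4 (horizontal axis) of every measured member of the 33 programme lists, ordered by their medians, and of 8 cell type marker lists under the dotted line. Red points rose, blue points fell, grey points were not called, and black bars are list medians, 1.47 for AP-1 and ATF factors at the top and -0.17 for hepatocyte identity factors at the bottom of the programmes.

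The falls were led by Snai2 (probe set 10940585), which encodes the repressor Slug. It stood at 4.78, 4.23, 4.05 and 4.49 in the remnants, against 6.91, 6.99, 6.05 and 6.23 in the control livers, no remnant overlapping a control, and its change was -2.21 ± 0.26 (adjusted p = 5.05e-06) over 3 animals and -2.16 ± 0.22 (adjusted p = 2.69e-07) over all 4. The remnants of 3 animals lay under the array medians, so the size of the fall is uncertain. Ppp1r3b (probe set 10792028), the subunit that brings protein phosphatase 1 to glycogen and favours glycogen synthesis in liver, had 8.33, 8.11, 9.05 and 8.68 in the remnants, against 9.58, 9.06, 9.33 and 10.53 in the control livers. Its fall was largest in replicate 4, which had the highest control, and smallest in replicate 3 (-0.28), and the change was -1.35 ± 0.22 (adjusted p = 0.00043) over 3 animals and -1.09 ± 0.21 (adjusted p = 0.00172) over all 4.

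Med4 (probe set 10781443), a subunit of the Mediator complex that links activators to RNA polymerase II, had 5.12, 4.74, 4.79 and 5.06 in the remnants, against 5.99, 6.25, 5.89 and 5.89 in the control livers, and its change was -1.07 ± 0.15 (adjusted p = 4.39e-05) over 3 animals and -1.07 ± 0.12 (adjusted p = 1.91e-06) over all 4. Mterf1, a mitochondrial transcription termination factor, fell with a change of -1.15 ± 0.23 (adjusted p = 0.0047) over 3 animals and -0.98 ± 0.20 (adjusted p = 0.00374) over all 4 and differences of -1.32, -0.81, -0.48 and -1.32. The other 7 among the 12 largest falls were Zfp322a, Cdc42ep3, Ift70b, Meiob, Nabp1, Zfp455 and Smad7, at -0.80 to -0.89. Mean levels under the median of the array medians (4.63) were found for Ift70b (control 4.51, remnant 3.65) and Meiob (control 4.47, remnant 3.61). The mean remnant levels of Cdc42ep3 (4.14), Zfp455 (4.39) and Mterf1 (4.60) lay under it too, so the size of these falls is uncertain. Cdc42ep3 is an effector of the GTPase CDC42, Ift70b a part of intraflagellar transport and Nabp1 a single-strand DNA binding protein. Genes were listed only where all 4 animals had the same sign, and the differences of these 7 in replicate 3 were between -0.06 for Zfp455 and -1.45 for Ift70b. With 2 animals the fall was not called without replicate 1 for Zfp455 (-0.57), Zfp322a (-0.75), Meiob (-0.80), Nabp1 (-0.93), Cdc42ep3 (-0.95) and Mterf1 (-1.06), without replicate 2 for Ift70b (-0.61), Meiob (-0.63), Nabp1 (-0.74), Cdc42ep3 (-0.78) and Zfp455 (-0.85), and without replicate 4 for Nabp1 (-0.81), Zfp322a (-0.82), Ift70b (-0.91), Cdc42ep3 (-0.92) and Mterf1 (-1.06).

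**Figure D4:**
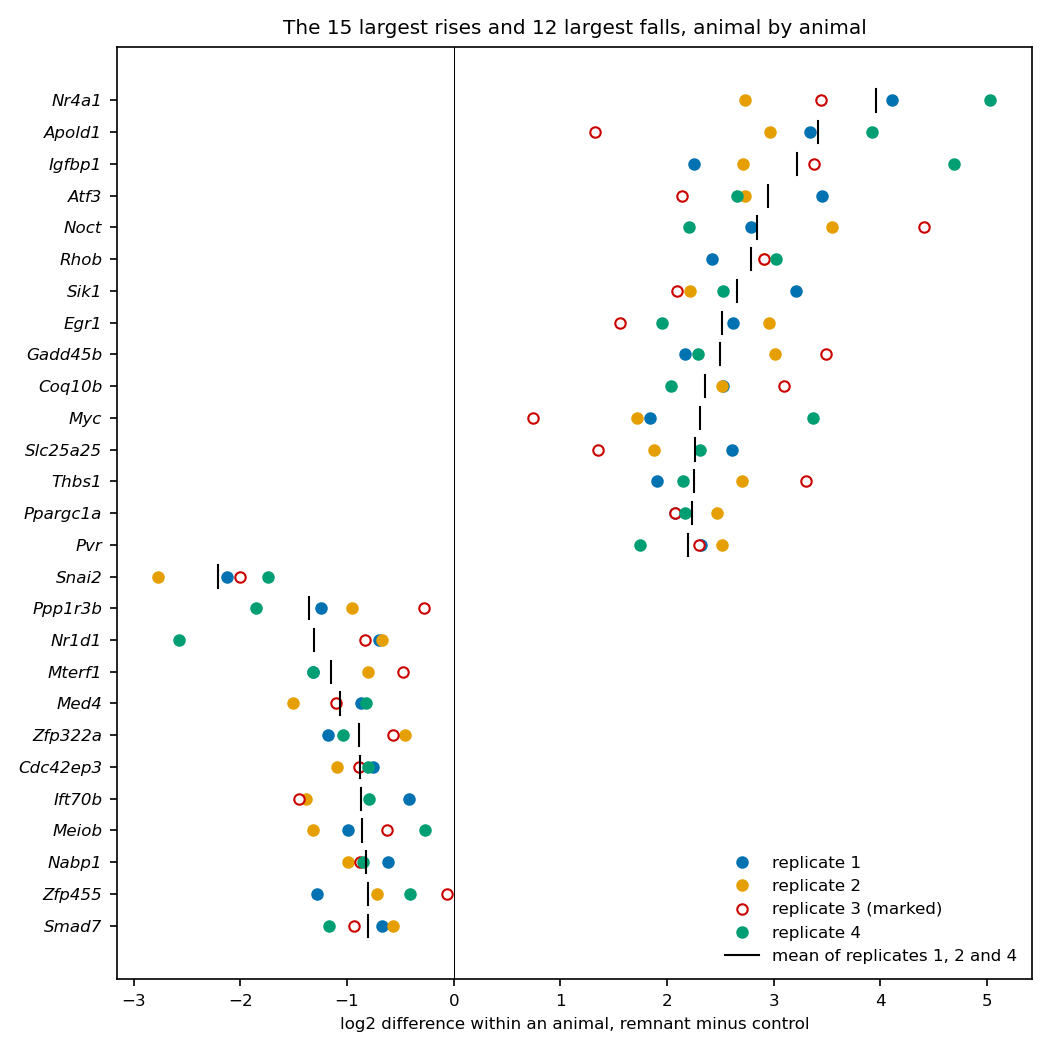
Log2 difference within each animal, remnant minus control (horizontal axis), for the 15 largest rises (top) and 12 largest falls (bottom). Each point is an animal, open red circles are replicate 3, and black bars give the mean of replicates 1, 2 and 4. Genes were taken for these lists if all 4 animals had the same sign, so that the points of a gene lie on 1 side of 0 by choice. Among the rises, replicate 3 is the lowest of the 4 for Apold1 (1.33), Myc (0.74), Atf3, Sik1, Egr1 and Slc25a25. It is the highest for Noct (4.41), Gadd45b, Coq10b and Thbs1.

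Bulk liver RNA mixes cell types, and fewer cells of a type cannot be told apart from less RNA per cell. Of 13 endothelial markers 1 rose, Lyve1, a receptor of sinusoidal endothelium, with 9.04, 8.96, 8.66 and 9.12 in the remnants, against 8.38, 8.33, 7.85 and 8.59 in the control livers and a change of 0.61 ± 0.16 (adjusted p = 0.0488) over 3 animals and 0.66 ± 0.14 (adjusted p = 0.0042) over all 4. Pecam1 (0.41, adjusted p = 0.0353) and Flt1 (0.40, adjusted p = 0.0137) rose over all 4 animals only. The call of Lyve1 was lost without replicate 1 (0.59), without replicate 2 (0.60) and without replicate 4 (0.65). Of 16 macrophage markers 0 were called over 3 animals and 1, Ctss, over 4 (0.40), while 15 of the 16 had a change above 0 (46% of all genes did), with a list median of 0.21, and 5 were higher at an unadjusted p under 0.05 in limma (5.51% of all genes). Neutrophil (12), lymphocyte (15), stellate (16), cholangiocyte (7), erythroid (8) and hepatocyte (12) markers had 0 calls in limma with 3 or 4 animals, with medians of -0.03 to 0.11. At an unadjusted p under 0.05, 4 endothelial, 2 neutrophil, 1 stellate and 1 hepatocyte marker were higher and 1 stellate marker lower. A change above 0 was not particular to macrophages. It was found for 12 of 13 endothelial, 11 of 12 neutrophil, 12 of 15 lymphocyte and 12 of 16 stellate markers. For cholangiocyte, erythroid and hepatocyte markers it was 3 of 7, 4 of 8 and 4 of 12. The mean log2 signal of a list per array was 7.03 to 7.56 in the remnants and 6.89 to 7.34 in the controls for macrophages, 6.58 to 6.94 in the remnants and 6.41 to 6.74 in the controls for endothelium and 3.95 to 4.06 in the remnants and 3.83 to 3.94 in the controls for neutrophils. Within replicates 1 to 4 the differences of these means were 0.14, 0.17, 0.20 and 0.29 for macrophages. For endothelium they were 0.15, 0.22, 0.17 and 0.20, and for neutrophils 0.19, 0.11, 0.08 and 0.12. Hepatocyte markers gave 0.03, 0.08, 0.01 and -0.004. Whether the macrophage and endothelial shifts have a part in the rises of cytokine and of endothelial early genes was not tested.

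The remaining lists had few calls. Of 19 hypoxia targets 1 rose (3 with all 4 animals), namely Pfkfb3. Of 22 genes of the drug-metabolising cytochrome list, which also holds the reductase that serves them, 0 were called in limma over 3 animals. With all 4 animals 2 rose, that reductase among them. Over 3 animals, 4 of the 22 were higher and 1 lower at an unadjusted p under 0.05 in limma. Of 20 proteins that hepatocytes secrete in bulk 0 were called in limma with 3 or 4 animals and 0 had an unadjusted p under 0.05, with changes of -0.13 to 0.11.

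Across all genes, which are not independent replicates, the within-animal differences of any pair of animals correlated at 0.41 to 0.51, pairs with replicate 3 included. Replicate 2 was scanned on another day than replicates 1, 3 and 4, together with its own control, so a scan day cancels within each animal. Without replicate 2, and so within 1 scan day, 87 genes rose and 31 fell, of which 86 and 26 were among the genes called over 3 animals. Without replicate 1 the numbers were 126 and 29 (119 and 23 among them), and without replicate 4 they were 109 and 20 (104 and 19).

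The CHO response was set against those of the EtOH diet (4 unmarked animals) and the HF diet (3 unmarked animals) at the same hour, in the same limma fit. The difference was called for 0 of 14506 genes against EtOH (0%) and 0 against HF (0%), with 3 or with all 4 CHO animals. At an unadjusted p under 0.05 there were 524 genes (3.61%) against EtOH and 449 (3.1%) against HF, and 651 and 524 with all 4 CHO animals. With 3 CHO animals both shares were under 0.05, the share that this threshold gives where no gene differs. The median SE of a difference was 0.18 and 0.19. Side by side, the log2 change of Nr4a1 was 3.96 ± 0.34 in CHO, 2.66 ± 0.29 in EtOH and 3.16 ± 0.34 in HF remnants. Sik1 gave 2.65 ± 0.22 in CHO, 1.29 ± 0.19 in EtOH and 2.11 ± 0.22 in HF remnants.

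Igfbp1 gave 3.22 ± 0.58 in CHO, 2.02 ± 0.50 in EtOH and 4.53 ± 0.58 in HF remnants. Slc25a25 gave 2.26 ± 0.36 in CHO, 0.47 ± 0.31 in EtOH and 1.73 ± 0.36 in HF remnants, and the difference from EtOH of 1.79 ± 0.47 (adjusted p = 0.9999) was not called. Nr1d1 gave -1.31 ± 0.31 in CHO, 0.02 ± 0.27 in EtOH and -1.10 ± 0.31 in HF remnants, a difference from EtOH of -1.33 ± 0.41 (adjusted p = 0.9999). Nr4a1, Sik1, Igfbp1, Slc25a25 and Nr1d1 are among the named genes with the largest differences from EtOH. Other named genes had closer values, such as Klf6 (1.86 in CHO, 1.85 in EtOH and 1.82 in HF remnants). Coq10b gave 2.36 in CHO, 2.33 in EtOH and 2.13 in HF remnants. A call in one diet without a call of the difference does not show that the diets differ, and a missing call does not show that they respond alike.

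**Figure D5:**
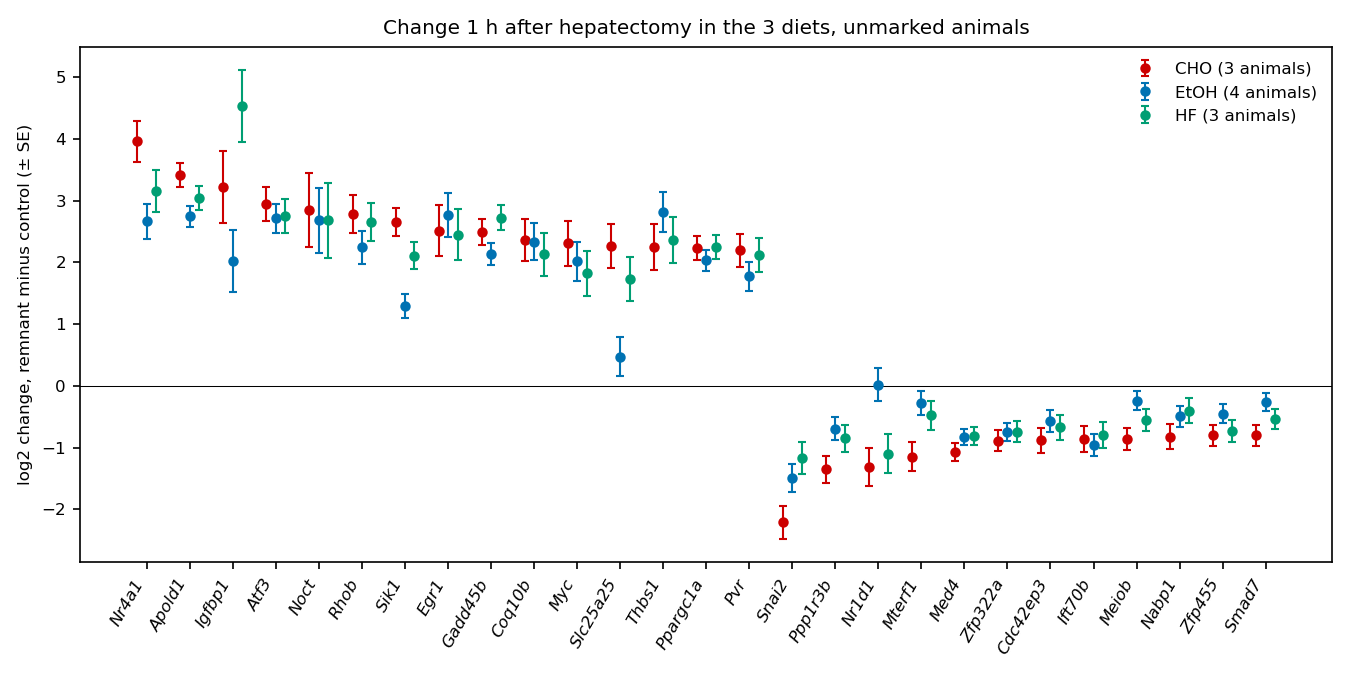
Log2 change 1 h after PHx (vertical axis, ± SE) of the 15 largest rises and 12 largest falls of the CHO diet, in CHO (red, 3 animals), EtOH (blue, 4 animals) and HF remnants (green, 3 animals). The genes were chosen for their change in CHO, so CHO points tend to lie farthest from 0, and Nr1d1 lies near 0 in EtOH remnants.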

How the data were processed

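Liver was frozen in liquid nitrogen, and RNA was taken with Trizol and RNeasy, labelled with biotin and, per the labels' protocols, run on Affymetrix Rat Gene 1.0 ST arrays. Per the submitters' processing notes, the deposited log2 values come from RMA (Affymetrix Expression Console, no version stated), and the table used here, by its deposited name, holds them after the authors' batch correction. Within animals, its differences equal those of the uncorrected table to within 0.00013. RMA pulls the arrays to one distribution, so a change common to all genes would not show. From the table without outliers, 56 of the 63 columns were not used, and the others were only compared by name.

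The arrays hold 29214 probe sets. In the platform annotation 15310 carry a single symbol, 323 carry several and 13581 are unlisted. For each of the 14506 genes the brightest probe set on average was kept (527 genes had a choice), and dim genes stayed in. The model was run with limma 3.58.1 under R 4.3.3 on 54 arrays of the 27 animals without a marked array, with the animal as fixed block, 1 PHx term per diet and time and 18 residual degrees of freedom. Adding CHO 1 h replicate 3 gave 56 arrays and 19 degrees of freedom. A gene was called when its p, adjusted by Benjamini-Hochberg over the 14506 genes, was under 0.05. Errors written with ± are standard errors of that fit (n = 3 animals, or 4 where stated). Animal labels pair the arrays. After group means were removed, the arrays of replicates 1, 2 and 4 correlated with those of the same animal at 0.41, 0.21 and 0.44, and with the arrays of the other animals at -0.34 to -0.05. Removing the mean of 3 animals itself pushes the values between animals below 0 where those within animals are positive. The negative values therefore add nothing on the pairing. Replicates are separate animals, and their number limits the precision. Promoters came from RefSeq tables on GRCr8. Plots were made in Python 3.11.15 with matplotlib 3.10.9.

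The subject, the gene lists and the marker lists were chosen with earlier results of these data known. Naming followed a rule, which took the 15 largest rises and 12 largest falls among calls with the same sign in all 4 animals, the 4 members of each list with the smallest p, every member of a list described in full, and 42 fixed genes, of which 4 are not reported here. The other members named, such as Klf4, Ccn1, Ccn2, Ier2, Srf, Nfkbia, Nfkbiz, Nfkb2, Tnf, Il6, Dusp5, Dusp6, Dusp10, Irs1, G6pc1, Igf1, Stat3, Fkbp5, Tsc22d3, Gata4, Tbx3, Hspa5, Nfkbib, Bcl3, Irak3, Slc2a5, Pklr, Thrsp and those that rose over 4 animals only, were chosen for their role after their values were seen. Alternatives changed the animals, the shared spread, the pairing, the source table, the normalization, array weights, the probe set rule and the filter on dim genes.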

Additional observations from a re-analysis of the deposited data

Results flagged for a closer look

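Of 148 genes named, 8 had an animal whose within-animal log2 difference lay far from the other 3, by Dixon's criterion for groups of 4. Chance flags about 1 in 20 such groups, and 5.08% of all genes were flagged. Replicate 4 had the lowest Nr1d1 difference, at -2.57 against -0.83 to -0.67 in the others. It also had the highest Nfkbia difference, at 2.11 against 0.51 to 0.70, and the highest Il10 difference, at 1.29 against 0.55 to 0.61. Replicate 2 was lowest for Batf, at -0.41 against 0.27 to 0.40, for Tnf, at -0.42 against 0.15 to 0.22, and for Pklr, at -0.53 against -0.14 to -0.10. Replicate 1 was lowest for Pecam1, at 0.17 against 0.45 to 0.50. Replicate 3, whose remnant array the submitters marked, was lowest for Ier2, at -0.15 against 0.83 to 0.92. The cause of these departures was not tested.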

How the results depend on the processing

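Over 3 animals 184 genes rose and 85 fell. With all 4 animals the counts were 322 and 374, and with the spread taken from those 4 alone 300 and 335. With the spread of the 3 unmarked animals alone they were 146 and 48, and with that of the 10 unmarked animals of the 1 h cohort 211 and 201. Array weights gave 289 and 295. Leaving out a replicate gave 87 to 126 rises and 20 to 31 falls, and 0 to 1 genes for the difference from EtOH. The cause of these shifts was not tested, beyond the fewer or more animals in each fit. Without a replicate block, that is with the pairing of an animal's arrays ignored, 166 genes rose and 71 fell, of which 156 and 55 were among the 184 and 85. The uncorrected value table, renewed quantile normalization, the mean of a gene's probe sets and the removal of dim genes (7253 genes left) gave 163 to 213 rises and 85 to 107 falls. The value table is no separate check, because its within-animal differences equal those of the main table to within 0.00013. It gave the same 184 and 85. Both differences between diets stayed at 0 genes in every alternative run except that single gene. Of the 148 genes named, 0 changed sign with a call on either side. The number losing or gaining a call was 1 and 14 with all 4 animals, 13 and 1 without the block, 23 and 3 with the spread of the 3 unmarked animals alone, 0 and 10 with array weights, and 37 to 41 lost when a replicate was left out. Among genes called over 3 animals only, Med17 lost its call with all 4 (-0.36, adjusted p = 0.0658). Changes of genes with control signals under the array medians are limited by background, which the files do not give.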

Other observations

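A pair of gene families outside the lists was counted after values were seen, so the counts are a description with no test. Mediator, the complex between activators and RNA polymerase II, had 4 of 23 measured subunits that fell over 3 animals (Med4, Med22, Med31 and Med17) and 0 that rose, 17.4% against 0.586% of all genes. Their log2 changes were -1.07, -0.67, -0.48 and -0.47, and the median of all 23 subunits was -0.14. Med17 was at -0.02 in replicate 3. Genes named Zfp or Znf, grouped by name alone, had 8 of 152 that fell (5.26%) and 3 that rose, with a median of -0.10. With all 4 animals 20 fell and 5 rose. Among all genes 0.586% fell and 1.27% rose over 3 animals, and 2.58% fell and 2.22% rose over all 4.

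Some other calls were picked by their names after values were seen, with no list behind them, and they describe these genes alone. The cytoskeletal actin Actg1 (0.83), the focal adhesion proteins Zyx (0.84) and Fhl2 (0.89) and the integrin subunit Itgb1 (0.42) rose over 3 and over all 4 animals. Thbd, which encodes thrombomodulin, had 5.76, 6.15, 5.87 and 5.85 in the remnants, against 4.65, 4.61, 4.15 and 4.40 in the control livers (1.37 ± 0.22, adjusted p = 0.00043). Esam, Egfl7 and Cd93, which encode endothelial surface and secreted proteins, rose by 0.65, 0.61 and 0.57, while 1 of the 13 listed endothelial markers rose (median 0.11). Clk1, a kinase of splicing factors, and Rsrp1, Pnisr and Rnpc3 fell, with changes of -0.78, -0.77, -0.55 and -0.71, and each was lower in all 4 remnants than in its own control. With 1 animal left out, calls among these genes were lost without replicate 1 for Cd93 (0.67), Egfl7 (0.62), Itgb1 (0.41), Med31 (-0.35), Med17 (-0.43), Pnisr (-0.49), Rsrp1 (-0.53), Rnpc3 (-0.54), Clk1 (-0.60) and Med22 (-0.69), without replicate 2 for Actg1 (0.82), Egfl7 (0.58), Cd93 (0.57), Itgb1 (0.34), Med31 (-0.51), Med17 (-0.55), Pnisr (-0.61), Med22 (-0.75) and Rsrp1 (-0.95), and without replicate 4 for Actg1 (0.78), Egfl7 (0.63), Itgb1 (0.50), Cd93 (0.47), Med17 (-0.44), Pnisr (-0.55), Med22 (-0.57) and Rsrp1 (-0.84).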
